A study of Caenorhabditis elegans with 12 samples.

Results

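Genes that set the fate of epidermal seam cells, or that fuse epidermal cells, were followed in RNA from whole Caenorhabditis elegans larvae: elt-1, elt-6, egl-18, ceh-16, rnt-1, bro-1 and nhr-73, which encode transcription factors or their partner, and eff-1 and aff-1, which encode cell fusogens. They were chosen by name for their known roles, all 9 were found by exact gene name in both count tables, and they are 9 of 46711 entries in one table and 46722 in the other. The 12 libraries, 3 in each of 4 groups lettered A to C, came from strains at mid L4, a late larval stage, grown at 20 °C for 45 h from feeding. DG3913, with the genotype lin-41(tn1541), an allele that tags LIN-41 with GFP, served as the U13A control. The genotype of VT3878, the U13A mutant, combines let-7(ma432) with lin-41(tn1541ma480), so that both U13A groups carry the tn1541 change and the mutant has a further change in lin-41, which its label describes as excluding lin-41 downstream. VT1367, with the col-19 promoter GFP transgene maIs105, served as the U18A control, and VT3797, with the same transgene and let-7(ma435), as the U18A mutant. U13A and U18A name substitutions at positions 13 and 18 of the let-7 microRNA, and each mutant was compared only with its own control. Nothing in the labels says that replicates were separate cultures, so p-values measure the spread between these libraries, which may be technical.

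Seam cells are lateral epidermal cells that divide in a stem cell-like pattern at each larval stage. After most divisions a daughter keeps the seam fate while its sister fuses with the large hyp7 syncytium, and at the switch from larva to adult the seam cells stop dividing, fuse with each other and secrete the ridges called alae. In the heterochronic pathway let-7 represses lin-41, which allows the transcription factor LIN-29 to act, and LIN-29 is known to be needed for the terminal fusion of the seam. The count tables describe whole animals, in which seam cells are a small part, and several of these genes are also used elsewhere, for example in vulval cells, the anchor cell and neurons.

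In the WBcel235 annotation elt-1 lies on chromosome IV at 9614995 to 9620280, egl-18 on IV at 1902322 to 1917840 and elt-6 on IV at 1917977 to 1921643, all on the plus strand, with 136 bases between the paralogs egl-18 and elt-6. eff-1 lies on chromosome II at 8346684 to 8350563 on the plus strand and aff-1 on II at 6860582 to 6863752 on the minus strand. ceh-16 lies on chromosome III at 8622735 to 8626314, and rnt-1, bro-1 and nhr-73 lie on chromosome I. All 9 are annotated as protein-coding. Exons of eff-1 share 34 bases with the opposite-strand gene C26D10.6, and exons of ceh-16 share 57 bases with polk-1. Whether counting used strand is not given in the sources used here, so reads in those stretches cannot be told apart.

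U13A libraries held 16659340 to 21414080 counts each and U18A libraries 6107652 to 9607239, but only 8.85% to 18.8% of counts fell in protein-coding genes of U13A libraries, against 55.9% to 60.9% of U18A libraries. Levels are given as CPM (counts scaled to a common library size by TMM), and are compared within a table only. U13A control C had the lowest protein-coding share and a TMM factor of 0.577, and it stood apart from its replicates: the chi-square statistic over genes, divided by its degrees of freedom, was 89.1 or more for its pairs and 20.9 for the remaining pair. For U18A mutant C the statistic was 23.8 and 17.4, and 6.77 for the remaining pair. Every pair of replicates of a group differed by more than sampling noise, the smallest value being 2.86. Markers of body muscle, intestine, neurons, germline and pharynx were above 0 in all 12 libraries.

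Estimates for the fusogen genes lay above the control in the U13A mutant and below it in the U18A mutant, as did those for elt-1 and elt-6, while egl-18 lay above it in both. The fitted level of aff-1 was 2.03-fold that of the control in the U13A mutant and 0.569-fold in the U18A mutant, and that of eff-1 1.55-fold and 0.659-fold. None of these changes passed the threshold within its own contrast, an adjusted p under 0.05 over all genes. The difference between the changes in the 2 mutants passed for aff-1 and not for eff-1. Only 5 of the 9 genes had enough counts to be tested (elt-1, elt-6, egl-18, eff-1 and aff-1), while ceh-16, rnt-1, bro-1 and nhr-73 had 0 to 6 counts in each library.

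**Figure D1:**
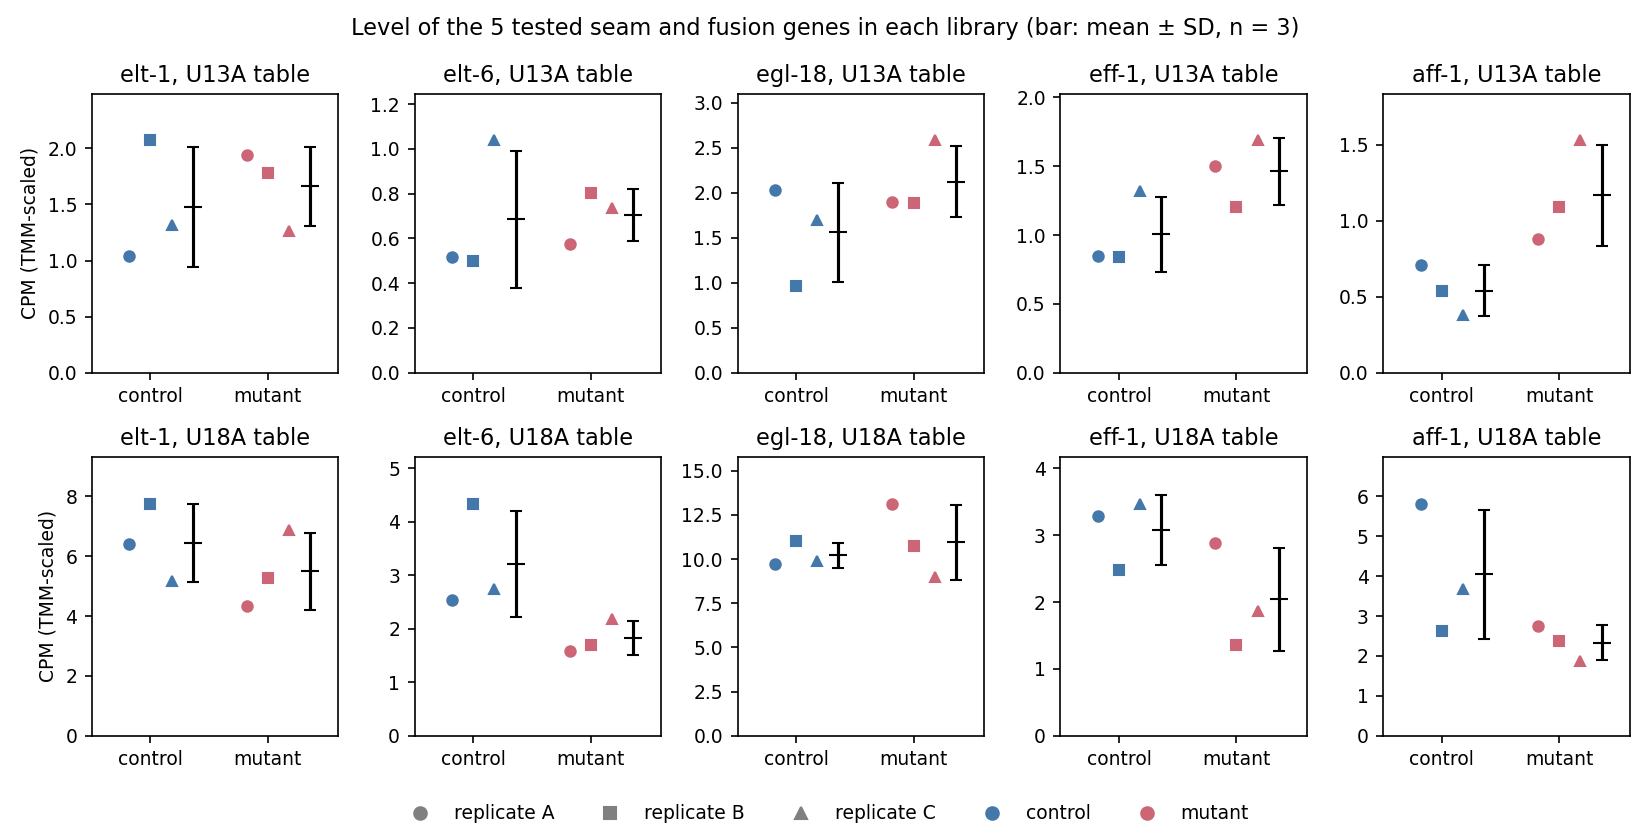
Level of the 5 tested genes in each library, in CPM scaled by TMM, with replicates A, B and C as circles, squares and triangles and the mean ± SD of each group as a bar. The 3 U13A mutants lie above the 3 controls for aff-1, and the 3 U18A mutants lie below the 3 controls for elt-6. The other gene and table combinations overlap.

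Read per kilobase of annotated exon, which allows genes to be ranked, egl-18 had the highest mean level of the 9 in all 4 groups. In the U18A controls it stood at 6.06 ± 0.420 CPM per kilobase (SD, n = 3), above elt-1 at 2.91 ± 0.587, elt-6 at 2.28 ± 0.705, aff-1 at 2.05 ± 0.821 and eff-1 at 1.31 ± 0.224. The ranges of neighbours in that order overlapped from elt-1 down to eff-1, so only egl-18 stood clear of its neighbour, and eff-1 stood clear of the 4 genes with few counts. In the U13A controls the ranges of egl-18, elt-1, elt-6 and eff-1 formed an overlapping chain, from 0.927 ± 0.325 down to 0.427 ± 0.116 CPM per kilobase, and aff-1 lay next at 0.274 ± 0.0836, its highest library at 0.358 just under the lowest of eff-1. Among the U13A mutants aff-1, at 0.590 ± 0.167, lay above elt-6, at 0.502 ± 0.0838, with overlapping ranges, and in the U18A mutants the order of the 5 genes was that of the U18A controls.

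Few reads stand behind each of these values. For the 5 tested genes the standard deviation between replicates ran from 6.94% to 44.6% of the group mean, and the error expected from counting alone from 11.4% to 32%. The first exceeded the second in 13 of 20 gene and group combinations. The intervals below cover 95% and rest on the same fit as the p-values.

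The fusogens were examined as executors of the terminal fate. AFF-1 is the fusogen that joins seam cells to each other at the end of larval life, and it also acts in the anchor cell and in other tubes. Reads of aff-1 numbered 15, 14 and 4 in controls A, B and C of U13A, or 0.708, 0.537 and 0.377 CPM, and 20, 19 and 29 in its mutants, or 0.883, 1.09 and 1.53 CPM. Every mutant library lay above every control, with control C lowest and mutant C highest. Mutants were higher without overlap for 9.8% of all genes tested in that table. The log2 fold change was 1.02 (SE 0.33, interval 0.30 to 1.74), with an edgeR p of 0.0088 and an adjusted p of 0.185. Without the unlike control C it was 0.90 (adjusted p 0.207), and without mutant C it was 0.78 (adjusted p 0.487).

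Among U18A libraries aff-1 reads numbered 39, 17 and 35 in controls A, B and C, or 5.82, 2.64 and 3.69 CPM, and 19, 14 and 18 in the mutants, or 2.74, 2.38 and 1.87 CPM. Control A was the highest and mutant C the lowest, and the groups overlapped, since control B lay below mutant A. The log2 fold change was -0.81 (SE 0.30, interval -1.45 to -0.18), with an edgeR p of 0.0152 and an adjusted p of 0.115. Without control A it was -0.50 (adjusted p 0.498), and without mutant C it was -0.65 (adjusted p 0.338). Whether fewer cells express a gene or each cell holds less of its RNA cannot be told apart in RNA from whole animals.

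Set against each other in 1 fit of all 12 libraries, the aff-1 change in the U13A mutant exceeded that in the U18A mutant by 1.85 on the log2 scale (SE 0.47, interval 0.89 to 2.82), a ratio of 3.62-fold, with an edgeR adjusted p of 0.0374. Of 14155 genes tested for this difference, 1.96% passed, and 1 of the 5 tested seam and fusion genes did. Leaving out single libraries ended the aff-1 call in 8 of 12 fits. The edgeR adjusted p was 0.0777 without U13A control B, 0.0717 and 0.142 without U13A mutants B and C, 0.154 and 0.0521 without U18A controls A and C, and 0.0507, 0.0824 and 0.140 without U18A mutants A, B and C. Over those 12 fits the difference stayed between 1.5 and 2.07. It was 1.74 (adjusted p 0.0418) without U13A control C, and 1.56 (adjusted p 0.113) when U13A control C and U18A mutant C were left out together. DESeq2 gave 1.86 with an adjusted p of 0.0704. The U13A mutant also carries the lin-41 change and the control strains differ, so the positions of let-7 are not the single difference between the contrasts.

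EFF-1 is the fusogen of most other epidermal fusions, including that of seam daughters with hyp7. Its gene had 18, 22 and 14 reads in the U13A controls, or 0.849, 0.844 and 1.32 CPM, and 34, 21 and 32 reads in the mutants, or 1.502, 1.204 and 1.69 CPM. Control C lay above mutant B, so the groups overlapped. The log2 fold change was 0.63 (SE 0.27, interval 0.041 to 1.22, edgeR p 0.0377, adjusted p 0.355). For U18A, eff-1 had 22, 16 and 33 reads in the controls, or 3.28, 2.48 and 3.48 CPM, and 20, 8 and 18 reads in the mutants, or 2.89, 1.36 and 1.87 CPM. Mutant A lay above control B, and the log2 fold change was -0.60 (SE 0.30, interval -1.24 to 0.034, edgeR p 0.0621, adjusted p 0.261). The difference between the contrasts was 1.26 (SE 0.40, interval 0.42 to 2.10, edgeR p 0.00512, adjusted p 0.139), which did not pass. Left-out libraries moved the adjusted p of that difference between 0.0682 and 0.335.

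**Figure D2:**
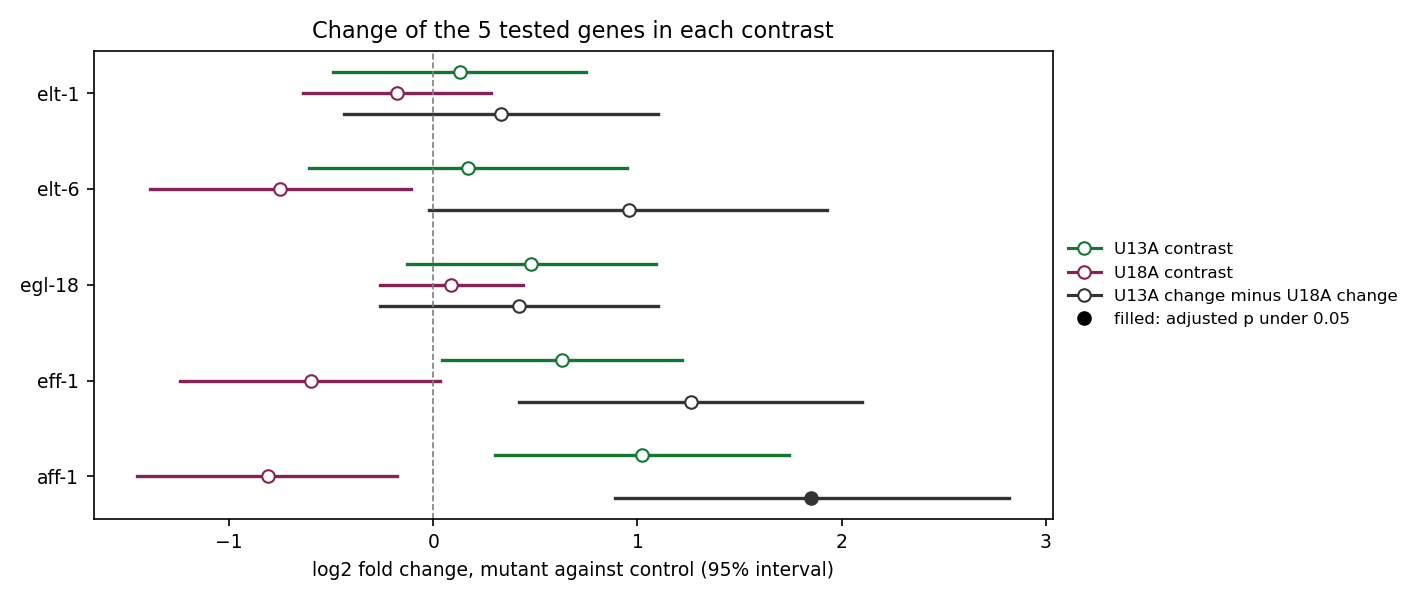
Log2 fold change of the 5 tested genes in the U13A contrast, the U18A contrast and for the difference between them, as points with 95% intervals; a filled point has an adjusted p under 0.05. For aff-1 and eff-1 the U13A points lie above 0 and the U18A points below it. Only the aff-1 difference, at 1.85, is filled.

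None of the GATA factor genes passed in either contrast or for the difference. EGL-18 and ELT-6 are paralogous GATA factors that act downstream of Wnt signalling to keep the seam fate and to hold back fusion. egl-18 had 43, 25 and 18 reads in controls of U13A, or 2.03, 0.959 and 1.698 CPM, and 43, 33 and 49 reads in its mutants, or 1.899, 1.89 and 2.58 CPM. Control A lay above mutants A and B. The log2 fold change was 0.48 (SE 0.28, interval -0.13 to 1.09, edgeR adjusted p 0.535). For U18A, egl-18 had 65, 71 and 94 reads in the controls, or 9.70, 11.02 and 9.90 CPM, and 91, 63 and 86 reads in the mutants, or 13.1, 10.7 and 8.95 CPM. The mutants spanned the range of the controls, and the log2 fold change was 0.087 (SE 0.17, interval -0.26 to 0.44, edgeR adjusted p 0.812). This interval, the narrowest of the 5 genes, left out a change of 1.5-fold in either direction.

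elt-6 had 11, 13 and 11 reads in controls of U13A, or 0.519, 0.499 and 1.04 CPM, and 13, 14 and 14 reads in the mutants, or 0.574, 0.8025 and 0.738 CPM. Control C lay above all 3 mutants, and the log2 fold change was 0.17 (SE 0.36, interval -0.61 to 0.95, edgeR adjusted p 0.886). U18A libraries held 17, 28 and 26 elt-6 reads in the controls, or 2.54, 4.35 and 2.74 CPM, and 11, 10 and 21 reads in the mutants, or 1.59, 1.701 and 2.19 CPM. All 3 mutants lay below all 3 controls, which held for 14.8% of all genes tested in that table. The log2 fold change was -0.75 (SE 0.30, interval -1.39 to -0.11, edgeR p 0.0234, adjusted p 0.148). The difference between the contrasts was 0.96 (SE 0.47, interval -0.021 to 1.93, edgeR adjusted p 0.427).

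ELT-1, the GATA factor that specifies epidermal fate in the embryo and is needed later in the seam, had 22, 54 and 14 reads for its gene in controls of U13A, or 1.04, 2.07 and 1.32 CPM. The U13A mutants had 44, 31 and 24 reads, or 1.94, 1.78 and 1.27 CPM. Control B was the highest of the 6 and control A the lowest, and the log2 fold change was 0.13 (SE 0.29, interval -0.49 to 0.75, edgeR adjusted p 0.892). U18A libraries held 43, 50 and 49 elt-1 reads in the controls, or 6.42, 7.76 and 5.16 CPM, and 30, 31 and 66 reads in the mutants, or 4.33, 5.27 and 6.87 CPM. Mutant C lay above controls A and C, and the log2 fold change was -0.18 (SE 0.22, interval -0.64 to 0.28, edgeR adjusted p 0.699).

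Across the 9 genes, 0 of the 5 tested passed in the U13A contrast, where 1.55% of 12044 genes passed, and 0 of 5 in the U18A contrast, where 8.16% of 12689 did. DESeq2 also called 0 in each contrast. At an unadjusted edgeR p under 0.05 there were 2 of 5 in each, aff-1 and eff-1 for U13A and aff-1 and elt-6 for U18A, against 12.6% and 21.5% of all genes. For the difference 2 of 5, aff-1 and eff-1, had an unadjusted p under 0.05, against 12.2%. These genes reached the test through their counts, so the 5 do not stand for all 9.

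Shares of counts within a library do not depend on how libraries are scaled, and 3 such shares were chosen after the values were seen. aff-1 and eff-1 together took 30.3%, 28.1% and 29.5% of the counts of the 5 tested genes in the U13A controls, against 35.1%, 33.9% and 41.2% in its mutants, without overlap. For U18A they took 32.8%, 18.1% and 28.7% in the controls and 22.8%, 17.5% and 17.2% in the mutants, where control B overlapped the mutants. The share of aff-1 within the fusogen counts was 63.9%, 51.5% and 51.5% in the U18A controls, against 48.7%, 63.6% and 50% in its mutants, so the balance between the fusogens did not separate those groups. elt-6 took 20.7%, 28.3% and 21.7% of the counts of the egl-18 and elt-6 pair in controls of U18A, against 10.8%, 13.7% and 19.6% in its mutants. In U13A that share was 20.4%, 34.2% and 37.9% in controls and 23.2%, 29.8% and 22.2% in mutants, which overlapped. The U18A groups did not overlap, but the exact binomial interval of mutant C, 12.6% to 28.4%, held all 3 control values. Intervals cover counting error only, since reads without molecular identifiers are not independent molecules.

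**Figure D3:**
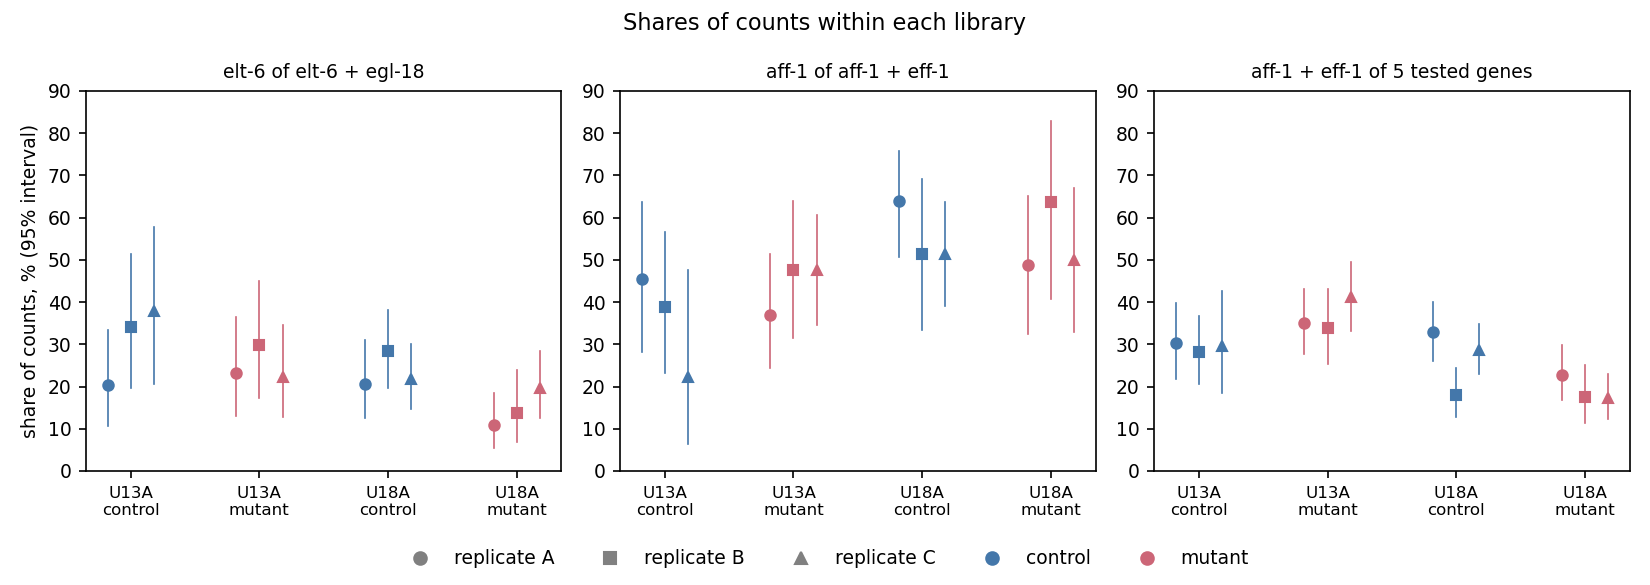
Shares of counts within each library, in percent, with exact 95% binomial intervals: elt-6 of elt-6 and egl-18, aff-1 of aff-1 and eff-1, and the fusogens of the 5 tested genes. The fusogen share is 28.1% to 30.3% in the U13A controls and 33.9% to 41.2% in the U13A mutants, with intervals of single libraries that overlap between those groups.

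The other 4 genes were close to the limit of detection. RNT-1, the Runx factor, and BRO-1, its CBFβ partner, promote seam cell divisions. rnt-1 reads numbered 2, 1 and 3 in controls of U13A and 2, 3 and 3 in its mutants, and rnt-1 had 2 reads in each U18A control and 3, 4 and 6 in the U18A mutants. Summed over the group, rnt-1 stood at 0.265 CPM in the U18A controls (exact 95% Poisson interval 0.0973 to 0.577) and at 0.580 CPM in the mutants (0.309 to 0.992). Those intervals overlapped, and without the count filter the edgeR adjusted p for rnt-1 in U18A was 0.598. bro-1 reads numbered 1, 2 and 0 in the U13A controls, 1, 0 and 0 in the U13A mutants, 2, 0 and 1 in controls of U18A and 2, 1 and 0 in its mutants.

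CEH-16, the engrailed homologue, keeps seam cells from fusing. ceh-16 had 0 counts in each U13A control and 1 in each U13A mutant, and 1, 3 and 0 in the U18A controls against 0, 2 and 0 in the U18A mutants. Over the group the exact 95% Poisson interval ran from 0 to 0.0638 CPM in the U13A controls and from 0.0105 to 0.149 CPM in the mutants, so no difference was detectable at this depth. nhr-73, a nuclear hormone receptor gene, had 1 count in U13A control B, 3 in U18A control A and 1 in U18A mutant A, and 0 in the other 9 libraries. Without the count filter none of the 4 genes passed in either contrast or for the difference in edgeR, where their adjusted p ran from 0.598 to 1, and none had an unadjusted p under 0.05. DESeq2 called none of them either.

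**Figure D4:**
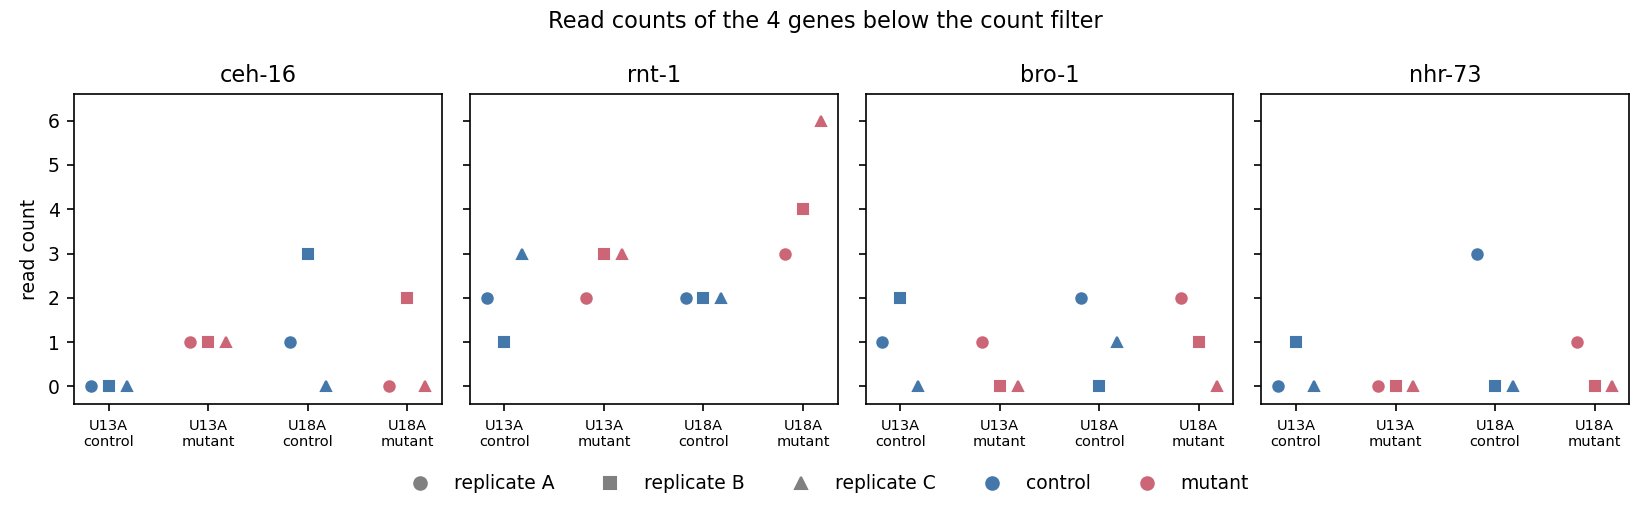
Read counts of ceh-16, rnt-1, bro-1 and nhr-73 in each of the 12 libraries by group, with replicates A, B and C as circles, squares and triangles. No library has more than 6 counts, and 9 of 12 have 0 for nhr-73.

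How far the genes varied in step differed from pair to pair. Over the 6 libraries of a table, log2 CPM of eff-1 and aff-1 had a Pearson r of 0.55 for U13A and 0.72 for U18A, and elt-1 and egl-18 had -0.62 and -0.57. egl-18 and elt-6, neighbours on the chromosome, had 0.31 and -0.26. These are descriptions over libraries that share their depth, scaling and group, and counts this low leave them uncertain. Among 5249 genes with at least 5 CPM on average in both tables, those most like aff-1 by the smaller of the 2 correlations were F26H9.5 (0.96 and 0.97), the innexin gene inx-13 (0.96 and 0.97) and oat-1 (0.95 and 0.94). For eff-1 they were the fatty acid desaturase gene fat-6 (0.95 and 0.96), cdc-37 (0.80 and 0.80) and nas-11 (0.78 and 0.82). The single most alike genes were T28C6.7 for elt-1 (0.94 and 0.84), kin-2 for elt-6 (0.85 and 0.90) and mex-3 for egl-18 (0.89 and 0.92). High values are found among so many genes over so few libraries, and they are given as a ranking only.

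Genes that act with the seam factors were then counted by list. Wnt signalling through the β-catenin asymmetry pathway sets which seam daughter keeps its fate. Of 23 Wnt genes, 21 were tested for U13A and 23 for U18A. In the U13A contrast mig-14, the Wntless homologue needed for Wnt secretion, rose by 0.73 on the log2 scale (SE 0.17, edgeR adjusted p 0.0491), from 3.09 ± 0.392 to 5.25 ± 0.393 CPM (SD, n = 3 each), and 20 did not pass. The mig-14 call was lost without control A or B or any one mutant (adjusted p 0.067 to 0.243), with the 10 most abundant entries removed (0.052) and in DESeq2 (0.125). In the U18A contrast lit-1, the Nemo-like kinase that lowers nuclear POP-1, fell by 0.57 (SE 0.087, edgeR adjusted p 0.000391), from 94.7 ± 8.06 to 63.7 ± 2.19 CPM, and 22 did not pass. The lit-1 call held in all 6 fits that left out one library. The list medians were -0.12 and -0.021, beside -0.010 and 0.0056 over all genes.

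Of 21 other epidermal transcription factor genes, 17 were tested in each contrast. None passed for U13A in edgeR or in DESeq2, with 2 at an unadjusted edgeR p under 0.05. In the U18A contrast blmp-1, a BLIMP1 homologue, fell by 0.62 (SE 0.12, edgeR adjusted p 0.00274), a call kept without any one library. lin-29 fell by 0.50 (SE 0.14, edgeR adjusted p 0.0288), from 15.9 ± 1.03 to 11.4 ± 0.851 CPM. The lin-29 call was lost without any one control or mutant B or C (adjusted p 0.0539 to 0.106) and in DESeq2 (0.178). It was also lost with all 12 libraries in 1 edgeR fit (0.111). The other 15 did not pass. For blmp-1 the difference between the contrasts passed, at 0.96 (SE 0.18, edgeR adjusted p 0.00348), and for lin-29 it did not, at 0.84 (SE 0.25, adjusted p 0.0875). Both differences had the sign of the aff-1 difference, as did 230 of the 277 genes that passed for the difference. Both genes were named through falls in U18A, which push the difference to that sign.

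A cell cycle list of 19 genes, most of which the germline also uses, included lin-28 and lin-46 of the heterochronic pathway. Of the 19, 18 were tested in each contrast. None passed for U13A in edgeR or in DESeq2, with 3 at an unadjusted edgeR p under 0.05. cdk-1, the mitotic kinase, rose by 0.40 (SE 0.096, edgeR adjusted p 0.0129) and cye-1, cyclin E, by 0.35 (SE 0.11, edgeR adjusted p 0.0474) in the U18A mutant, and 16 did not pass. The cdk-1 call was lost without control A (adjusted p 0.0907) or mutant B (0.0596). The cye-1 call was lost without control A (0.262) or C (0.0628) or any one mutant (0.0674 to 0.168), and in DESeq2 (0.119). It was also lost with all 12 libraries in 1 edgeR fit (0.106). Among 15 genes of fusion partners and cell junctions 14 were tested in each contrast. In U13A 0 passed in edgeR or in DESeq2, and 0 had an unadjusted edgeR p under 0.05. In U18A dlg-1, the Discs large homologue of epithelial junctions, fell by 0.46 (SE 0.098, edgeR adjusted p 0.0053), a call kept without any one library.

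Seam reporters, genes used to mark seam cells, did not move one way. They include ajm-1, which is also in the list of fusion partners and junctions. wrt-2, a hedgehog-related gene, stood at 8.21, 4.345 and 3.48 CPM in controls of U18A, against 2.165, 0.851 and 1.35 CPM in its mutants. It fell by 1.81 on the log2 scale (SE 0.38, edgeR adjusted p 0.0079), a call lost without mutant C (0.0602). grd-3, also hedgehog-related, had 19.7, 19.4 and 23.9 CPM in controls of U18A, against 27.1, 33.5 and 28.1 CPM in its mutants. It rose by 0.48 (SE 0.12, edgeR adjusted p 0.0191), a call lost without control A (0.0992), control B (0.103) or mutant B (0.112). The grd-3 call in U18A was also lost with all 12 libraries in 1 fit (0.193). In the U13A contrast none of the 4 tested reporters passed in edgeR, with 2 at an unadjusted p under 0.05, whereas DESeq2 called 1, grd-3 (adjusted p 0.0139; 0.0574 in U18A). In edgeR grd-3 had a log2 fold change of 0.79 (edgeR adjusted p 0.0872) and grd-10 of 0.81 (0.0548). Without U13A control C, which stands apart, edgeR called both, with adjusted p of 0.00275 and 0.00453, and it also called both without the count filter, with the replicate block and with all 12 libraries in 1 fit. Summed over the 6 reporters, of which ceh-16 was at 0 in several libraries, the level was 41.7 to 56.9 CPM in the U13A controls and 61.8 to 70.7 in the mutants, and 162.3 to 181.8 in controls of U18A against 151.8 to 159.5 in its mutants.

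**Figure D5:**
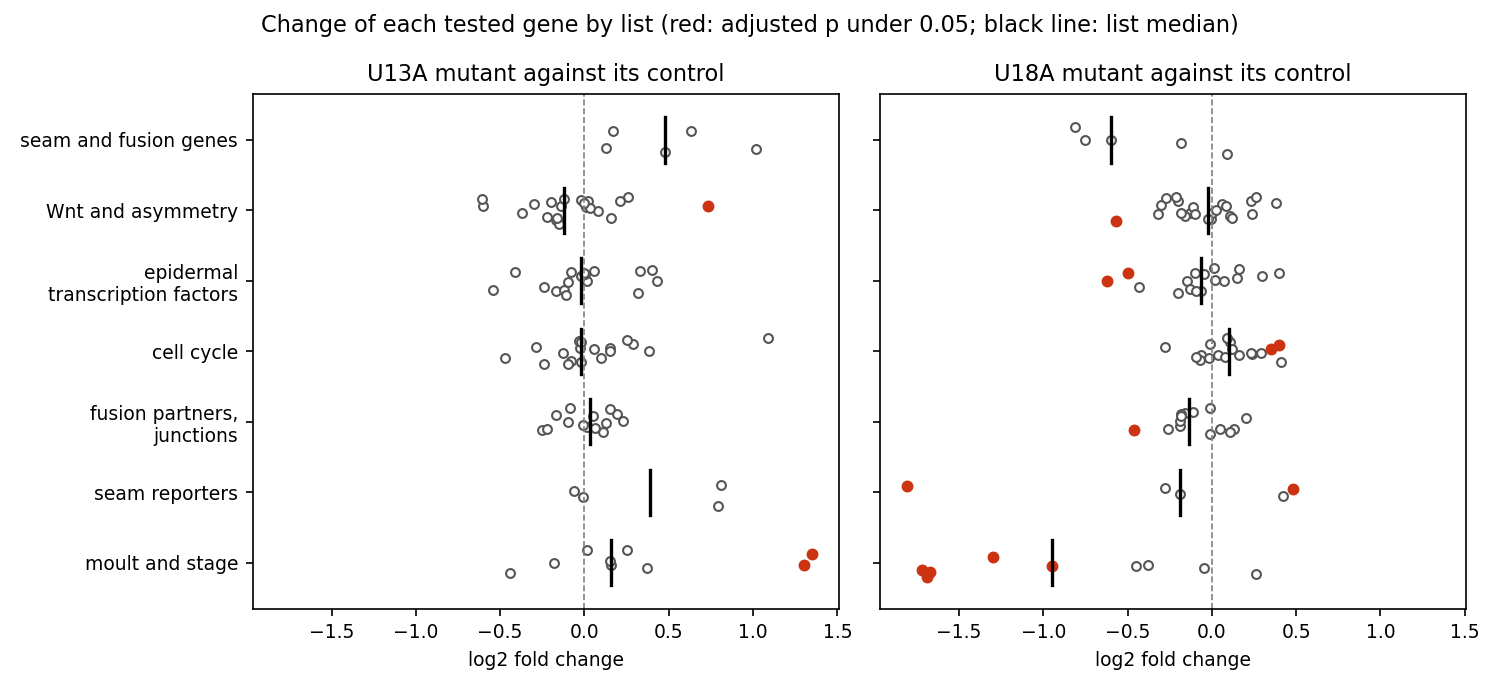
Log2 fold change of each tested gene by list in the U13A contrast and the U18A contrast; red points have an adjusted p under 0.05 in edgeR, and black lines are list medians. The Wnt, transcription factor, cell cycle and junction lists lie around 0 in both contrasts, and moult and stage genes include 2 that rose in U13A and 5 that fell in U18A.

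Genes that follow the moulting cycle and the stage were then set beside the fusogens. Of 9 such genes, all tested, 2 rose and 0 fell past the threshold in the U13A mutant, and 0 rose and 5 fell in the U18A mutant, with medians of 0.16 and -0.95. All 5 calls of the U18A mutant were lost without mutant C (edgeR adjusted p 0.0722 to 0.194), a library that stands apart. Without it the log2 fold changes were -1.71 for noah-1, -1.67 for noah-2, -1.55 for mlt-11, -1.24 for mlt-10 and -0.85 for lin-42. With all libraries they were -1.69, -1.72, -1.67, -1.30 and -0.95, with smaller SEs. lin-42 and mlt-10 had log2 fold changes of -0.18 (SE 0.17) and -0.44 (SE 0.29) in U13A, opposite to the fusogens. So did col-19 in U18A, at 0.26 (SE 0.098), and none of these passed (these were named after their values were seen). For the difference between the contrasts lin-42 stood at 0.78 (SE 0.25) and mlt-10 at 0.89 (SE 0.43), with the sign of aff-1. col-19 stood at -0.086 (SE 0.18), and none of these differences passed. The median difference of the 9 genes was 0.85, beside 0.011 over all genes. noah-2, which encodes an apical matrix protein, rose from 5.07 ± 0.738 to 12.95 ± 1.699 CPM in the U13A mutant (edgeR adjusted p 0.000668) and fell from 81.8 ± 23.7 to 24.8 ± 1.32 CPM in the U18A mutant (edgeR adjusted p 0.00109). noah-1 rose by 1.30 and fell by 1.69 on the log2 scale, and mlt-11 and mlt-10 fell by 1.67 and 1.30 in the U18A mutant. Without U18A control B the falls of noah-1 and mlt-11 also lost their calls (edgeR adjusted p 0.0562 and 0.0593). The summed level of the 9 was 117.6 to 128.2 CPM in the U13A controls against 128.4 to 160.1 in the mutants, and 1034 to 1434 CPM in the U18A controls against 689 to 827 in the mutants. In both tables the groups did not overlap, on the side on which aff-1 lay, though in U13A only by 128.2 against 128.4 CPM. The seam reporter sums also lay apart on that side in both tables. In U18A the mean of ajm-1 fell from 66.7 to 58.5 CPM and that of srf-3 from 67.5 to 55.9, and neither passed. wrt-2 also fell, while grd-3 rose from 21.0 to 29.6 CPM and grd-10 from 8.51 to 11.3. The reporter sum in U18A thus does not describe each reporter. Sums of muscle markers in U13A, and of hypodermis and vulva markers in U18A, also lay apart on the side of aff-1. In U18A the hypodermis markers dpy-7 and rol-6 fell, while lin-26, elt-3 and tsp-15 had log2 fold changes of 0.16, 0.15 and 0.13. Sums of intestine and neuron markers in U18A lay apart on the other side. None of the 9 moult and stage genes was at 0 in any library. Among U18A libraries noah-2 was highest in control A, at 108.5 CPM, as was aff-1. So were noah-1 (221.2 CPM), mlt-11 (280.5), mlt-10 (142.1), lin-42 (251.7), nas-37 (27.9) and nhr-23 (46.6). nekl-2 was highest in control C, at 5.69 CPM, and col-19 in mutant A, at 465.5 CPM. The part of stage at harvest in the aff-1 values was not tested.

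Markers of other tissues were set beside the fusogens in the same way. The U18A mutant had 2 of 5 hypodermis markers lower, with rol-6 falling by 1.25 and dpy-7 by 1.89 on the log2 scale, although the median of the 5 was 0.13. These calls were lost without mutant C (adjusted p 0.188 and 0.197), and that of rol-6 without mutant A (0.0568). The rol-6 call was also lost with all 12 libraries in 1 edgeR fit (0.0877). Of 7 vulva and anchor cell markers, where aff-1 and eff-1 also act, 6 were tested and 1, cog-1, fell by 0.79 in the U18A mutant (SE 0.21, edgeR adjusted p 0.0228). The cog-1 call was lost without control A (0.116), control B (0.0741) or mutant C (0.101), and in DESeq2 (0.145). Their summed level was 49.6 to 52.3 CPM in controls of U18A against 42.2 to 47.0 in its mutants, and 9.53 to 13.96 CPM in the U13A controls and 8.75 to 10.0 in the mutants, where at most 1 of 7 was at 0 in a library. The part of these cells in the aff-1 values was not tested. No marker of muscle, intestine, neurons, germline or pharynx passed in edgeR in either contrast. An unadjusted p under 0.05 was found for 1 of them, ifb-2 of the intestine in U18A, named after its value was seen. Some summed levels still lay apart. Muscle in U13A stood at 727.6 to 1116 CPM in controls and 1140 to 1167 in mutants. In U18A, intestine stood at 1051 to 1097 CPM in controls and 1150 to 1214 in mutants, and neurons at 58.97 to 65.63 and 67.7 to 72.05. The other sums of these tissues overlapped between groups.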

How the data were processed

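The authors deposited raw read counts per gene name, in 2 tables of 6 libraries each, one per mutant with its control. Ribosomal RNA was depleted from total RNA and the NEBNext Ultra II kit was used for libraries, per the labels' protocols. The submitters' processing notes name cutadapt 1.9, Bowtie2 2.3.4.3 and featureCounts of Subread 1.6.2. The genome build, annotation, strand setting and treatment of multi-mapping reads are not given in the sources used here, and exonic lengths and positions are those of WBcel235 (Ensembl). No sequences were available to print, and let-7 sites were not searched.

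Counts were tested with the quasi-likelihood test of edgeR 4.0.16 (R 4.3.3, robust fit, TMM scaling, filterByExpr at 10 counts and 15 in total), 2-sided, with Benjamini-Hochberg adjustment over all genes tested and a threshold of 0.05. U13A and U18A were fitted separately on 6 libraries, and their difference on all 12. Each standard error was taken from the estimate and its F statistic. DESeq2 1.42.0 and other settings were alternatives. Correlations used log2 of CPM plus 0.5. The code was tested on simulated counts, where known changes were recovered but the share of false calls exceeded the threshold in the separate contrasts. Figures were drawn with matplotlib 3.10.9.

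The 9 genes and the lists were chosen with earlier results of these data known. All 9 are named, and from each list the genes past the threshold, at most 4 per contrast by size of change, and the most alike genes by the rule given. grd-10 and ifb-2 were named after their values were seen. In the lists, 22 of 23 Wnt genes were found by name in the U13A table, and 14 of 15 fusion partner genes in each.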

Additional observations from a re-analysis of the deposited data

Results flagged for a closer look

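For 7 of the named genes the change in U13A minus that in U18A, on the log2 scale, passed its own test over all genes in edgeR. Of all 14155 genes tested for it, 1.96% passed. Apart from aff-1, the 7 were named because they had passed in a contrast or for this difference, so their number carries no weight. The difference was 1.85 (SE 0.47, adjusted p 0.0374) for aff-1. For blmp-1 it was 0.96 (SE 0.18, adjusted p 0.00348), and for the hypodermis marker dpy-7 2.56 (SE 0.52, adjusted p 0.0193). Among moult and stage genes it was 3.01 for noah-1 (SE 0.28, adjusted p 4.37e-05), 3.09 for noah-2 (SE 0.25, 1.01e-06), 1.95 for mlt-11 (SE 0.40, 0.0386) and 0.85 for nas-37 (SE 0.22, 0.0497). All 7 had the same sign, as did 230 of the 277 genes that passed. Leaving out one library in turn ended the call in 8 of 12 fits for aff-1, 6 for dpy-7, 8 for mlt-11 and 9 for nas-37, and in 0 for blmp-1, noah-1 and noah-2. The contrasts differ in lin-41 and in the control strain as well as in the let-7 position.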

How the results depend on the processing

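Counts of called seam and fusion genes stayed at 0 in the U13A and the U18A contrast under all 15 alternatives run for each. For the difference the count of 1 became 0 with DESeq2, at an adjusted p under 0.01 and without the 2 libraries that stand apart (an alternative chosen after seeing the data, as was keeping protein-coding entries only), and ran from 0 to 1 when one library was left out. Over all genes, 543 passed for U13A without the count filter, 431 with all 12 libraries in 1 fit and 54 at an adjusted p under 0.01, with 37 to 352 when one replicate was left out (37 without mutant A, 38 without mutant B, 61 without control A, 352 without control C). For U18A, DESeq2 gave 653 genes, the 0.01 threshold 507, and leaving out a replicate 548 (without control A) to 1109, with 619 without control B. For the difference, 473 passed without the count filter, 144 at 0.01, and 176 (without U18A mutant C; 182 without U18A control A) to 342 with one library left out. No pairing by the letters A to C was evident: deviations of same-lettered libraries had correlations of -0.04 to 0.13, and not every library correlated best with its own letter. Deviations from the mean of 3 libraries are bound to each other, so these values cannot settle whether letters share a batch. With the replicate block the calls numbered 393 in U13A, 1429 in U18A and 310 in the difference, and the aff-1 difference was 1.80 (adjusted p 0.0379). Pathway list genes past the threshold numbered 1 of 73 tested for U13A (0 to 3 over the alternatives) and 8 for U18A (4 to 12). Over all genes 1.55% and 8.16% passed, and the numbers tested in each list are given above. Signs near 0 turned when a replicate was left out: elt-1 in U13A ran from -0.10 to 0.54, elt-6 in U13A from -0.026 to 0.45 and egl-18 in U18A from -0.069 to 0.23. The aff-1 and eff-1 estimates kept their sign in every alternative. The planned search for let-7 seed matches in 3′ UTRs was not run, since no genome sequence was used here. At most 94 reads of any of the 9 genes in a library limit what can be told. The cause of these shifts was not tested.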
